A study of Mus musculus with 4 samples.

Results

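Mature dendritic cells (DCs) made up 112 of the 11649 cells kept from 4 droplet libraries of tumor-infiltrating cells. They were picked by raw counts of unique molecular identifiers (UMIs, each standing for 1 captured RNA molecule): at least 3 UMIs of *Fscn1*, at least 1 UMI of *Ccr7* and at most 1 UMI over *Cd3d*, *Cd3e* and *Cd3g*. They are set here against immature DCs, 682 cells with 0 *Fscn1* UMIs and either at least 2 UMIs over *Xcr1* and *Clec9a* (DC1-type) or at least 3 UMIs of *Cd209a* (DC2-type). Since UMI counts of these cells chose both classes, every value that sets them side by side is a description and carries no test.

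DCs take up antigen in tissue, digest it and present it to T cells on MHC molecules. On maturation a DC lowers uptake, raises costimulatory ligands and the chemokine receptor CCR7, and moves along lymphatic vessels to the draining lymph node, with the actin-bundling protein fascin (*Fscn1*) shaping its long surface projections. In tumors, mature DCs are known for carrying immune-stimulating genes such as IL-12 together with immune-limiting genes such as PD-L1.

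The study asked which immune cells take up cytoplasm from tumor cells. A single-cell clone of the mouse melanoma line B16-F10, made by lentiviral transduction to express cytoplasmic ZsGreen (ZsG) when doxycycline is given, was injected under the skin of wild-type C57BL/6 mice, and the mice drank doxycycline for 4 days before tumors were collected on day 8. Infiltrating cells were sorted either on CD45, carried by all immune cells, or on CD45 and the T cell receptor beta chain (T cell sort; the study's methods name CD3 in its place), and each sort was split into ZsG-negative (ZsG-) and ZsG-positive (ZsG+) cells. All 4 groups thus share the ZsG tumor and doxycycline, and no tumor without ZsG was among them; age and sex of the mice and any pooling of animals are not given in the sources used here. A gate on either T cell marker should keep DCs out, so those described from the T cell sort lie outside its intended cells. There was 1 library per sort and gate, so a difference between gates is a difference between 2 libraries, and the 95% intervals given throughout (exact binomial for shares of cells, exact Poisson for sums, exact conditional for ratios) cover counting error only.

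The libraries held 5437 barcodes and 47537541 UMIs (CD45 sort, ZsG-), 5168 and 56510578 (CD45 sort, ZsG+), 1136 and 10030971 (T cell sort, ZsG-), and 2396 and 22100220 (T cell sort, ZsG+). Between 1 and 6 barcodes were shared by any pair of libraries, and 0 were shared among mature DCs. The sources conflict on which library of the T cell sort is which. The larger was taken as ZsG+, as the sample descriptions and the name of the deposited table give the order, while the library names give the other. With the names exchanged, every comparison between the gates of that sort would turn round. Mature DCs would then be 2.55% of its ZsG- and 0.211% of its ZsG+ cells. Under the names used, the shares of macrophages and T cells, given below, differ between gates in the same direction in both sorts.

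Mature DCs were more frequent in the ZsG+ library of the CD45 sort and in the library taken as ZsG+ of the T cell sort. In the CD45 sort they were 11 of 4699 ZsG- cells (0.234%, 95% interval 0.117 to 0.418%) and 51 of 4123 ZsG+ cells (1.24%, 0.922 to 1.62%), a 5.28-fold ratio of shares (log2 2.40, 1.44 to 3.49). In the T cell sort they were 2 of 948 ZsG- cells (0.211%, 0.0256 to 0.760%) and 48 of 1879 ZsG+ cells (2.55%, 1.89 to 3.37%), a 12.1-fold ratio (log2 3.6, 1.67 to 6.68). The intervals of the shares did not overlap in either sort. Immature DCs were also more frequent among ZsG+ cells, by 2.94-fold in the CD45 sort and 2.06-fold in the T cell sort.

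Among mature and immature DCs together, the mature share was 7.91% (4.02 to 13.7%) of ZsG- and 13.4% (10.1 to 17.2%) of ZsG+ DCs in the CD45 sort, and the intervals overlapped. In the T cell sort it was 4.35% (0.531 to 14.8%) and 21.1% (15.9 to 26.9%), and they did not. Of the immature DCs of that sort, 63.8% held *Siglech*, a gene of plasmacytoid DCs. In the CD45 sort, plasmacytoid DC genes were higher in ZsG- than in ZsG+ immature DCs (values below), so the class differed in kind between gates. The gates differed in what else they held: in the CD45 sort, cells with at least 10 UMIs over *C1qa*, *C1qb* and *C1qc* (macrophages) were 0.149% of ZsG- and 44.9% of ZsG+ cells, and cells with at least 3 CD3 UMIs (T cells) were 35% and 9.41%. In the T cell sort macrophages were 3.38% of ZsG- and 6.44% of ZsG+ cells, and T cells were 69.3% and 41.6%. The ZsG+ gate of the CD45 sort took bright cells, so the gates of both sorts are not the same. The part of the gate and of the cells around them in these shares was not tested.

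**Figure D1:**
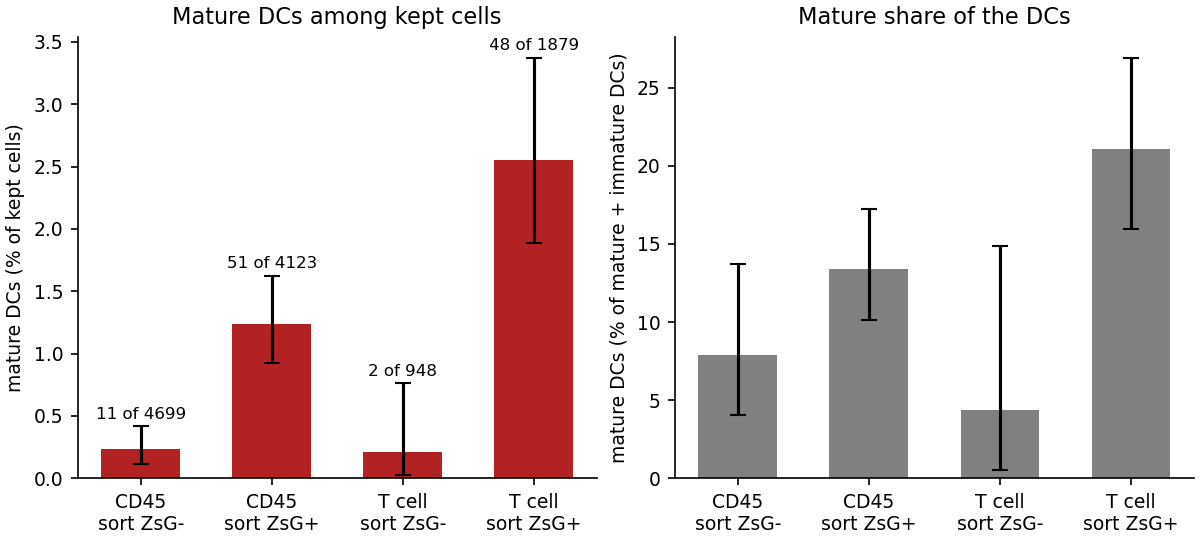
Left, mature DCs as a percent of kept cells in each of the 4 libraries, with the number of cells above each bar. Right, mature DCs as a percent of mature plus immature DCs. Bars are single libraries and lines are exact binomial 95% intervals; the ZsG+ bars reach 1.24% and 2.55% on the left against 0.234% and 0.211% for ZsG-.

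Mature DCs were sequenced about as deeply as immature ones. Their median was 11148 UMIs and 2553 genes in the CD45 sort and 10113.5 UMIs and 2267.5 genes in the T cell sort, against 12608 and 9860.5 UMIs in immature DCs. With each cell thinned at random to 3000 UMIs, the median was 1197 genes in mature and 1303 in immature DCs of the CD45 sort, and 1123.5 and 1304 in the T cell sort. Mitochondrial genes took a median 2.87% (CD45 sort) and 2.02% (T cell sort) of the UMIs of a mature DC and 3.45% and 5.02% of those of an immature DC. By library, mature DCs had median depths of 7541 (CD45 sort, ZsG-), 12533 (CD45 sort, ZsG+), 14433.5 (T cell sort, ZsG-) and 9957.5 UMIs (T cell sort, ZsG+).

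The limits of the rule lay in a thinly filled range. The median mature DC held 15.5 *Fscn1* and 25.5 *Ccr7* UMIs in the CD45 sort and 12.5 and 27 in the T cell sort, with maxima of 58 and 88 and of 39 and 107. Just inside the limit, 2 cells of either sort held exactly 3 *Fscn1* UMIs. Just outside it, 2 cells of the CD45 sort and 1 of the T cell sort held 2 *Fscn1* UMIs with *Ccr7*, and 8 and 3 held 1. A further 4 cells in each sort passed for *Fscn1* and *Ccr7* and were left out for at least 2 CD3 UMIs.

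The label was checked against 6 defining markers: *Fscn1*, *Ccr7*, *Il12b*, *Ccl22*, *Il4i1* and *Cacnb3*. The rule used *Fscn1* (ENSMUSG00000029581, chr5:142960343-142973185, plus strand, GRCm38) and *Ccr7* (ENSMUSG00000037944, chr11:99144196-99155077, minus strand), so they check nothing. The other 4, which the rule did not use, were all higher in the mature class of every library. All 4 were seen in 19 of 62 mature DCs of the CD45 sort and 7 of 50 of the T cell sort, 3 were seen in a further 28 and 21, and at least 1 was seen in every mature DC. By these 4 markers the data do not go against the name.

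Levels below are in CPM, a gene's UMIs per 1000000 UMIs of the same cells, in the order CD45 sort ZsG-, CD45 sort ZsG+, T cell sort ZsG-, T cell sort ZsG+; the T cell sort ZsG- library holds only 2 mature DCs, so its values are coarse. A log2 ratio is mature over immature DCs of a sort, both libraries summed, with 0.5 added to each sum. For the genes of the rule the levels in mature DCs were 2821, 1167, 485 and 1443 CPM (*Fscn1*, 0 in immature DCs by the rule) and 4422, 1902, 4226 and 2753 CPM (*Ccr7*). *Ccr7* in immature DCs was 7.28, 12.2, 63.1 and 50 CPM. Both genes are given as a description, since the rule chose the cells by them.

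*Il12b* (ENSMUSG00000004296, chr11:44400063-44414033, plus strand) encodes the p40 chain shared by IL-12 and IL-23. Its levels in mature DCs were 580, 345, 69.3 and 1411 CPM, and in immature DCs 0, 4.82, 3.95 and 34.1 CPM. The lowest mature library level lay above the highest immature one, but the median mature DC of either sort held 0 *Il12b* UMIs. The log2 ratio was 6.57 (6.04 to 7.21) in the CD45 sort and 5.55 (5.22 to 5.91) in the T cell sort. The UMIs lay in few cells: *Il12b* was seen in 25 of 62 mature DCs (40.3%, 28.1 to 53.6%) and 11 of 50 (22%), and the 3 highest cells held 56.6% and 89.3% of all *Il12b* UMIs, with up to 116 and 369 UMIs in 1 cell. The partner chain of IL-12, *Il12a*, had 0 UMIs in mature DCs of both sorts, and so did *Il23a*, the partner of p40 in IL-23.

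*Ccl22* (ENSMUSG00000031779, chr8:94745590-94751699, plus strand) encodes a chemokine that draws CCR4-bearing T cells. It stood at 395, 859, 1836 and 306 CPM in mature DCs and at 17.9, 13.9, 0 and 15 CPM in immature DCs. Its log2 ratio was 5.77 (5.48 to 6.09) in the CD45 sort and 4.95 (4.44 to 5.54) in the T cell sort. *Il4i1* (ENSMUSG00000074141, chr7:44816387-44840809, plus strand), a secreted L-amino acid oxidase that limits T cell growth, stood at 163, 550, 866 and 875 CPM against 8.60, 7.23, 0 and 15.5 CPM. Its log2 ratios, 6.07 (5.67 to 6.51) and 6.09 (5.61 to 6.65), were close to each other. *Cacnb3* (ENSMUSG00000003352, chr15:98630840-98644529, plus strand), a calcium channel beta subunit, stood at 731, 316, 173 and 414 CPM against 0, 0.344, 3.95 and 2.65 CPM, a log2 ratio of 10.05 (8.5 to 13.42) and 7.03 (6.11 to 8.35). In each of these 3 genes the lowest mature library lay above the highest immature one.

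**Figure D2:**
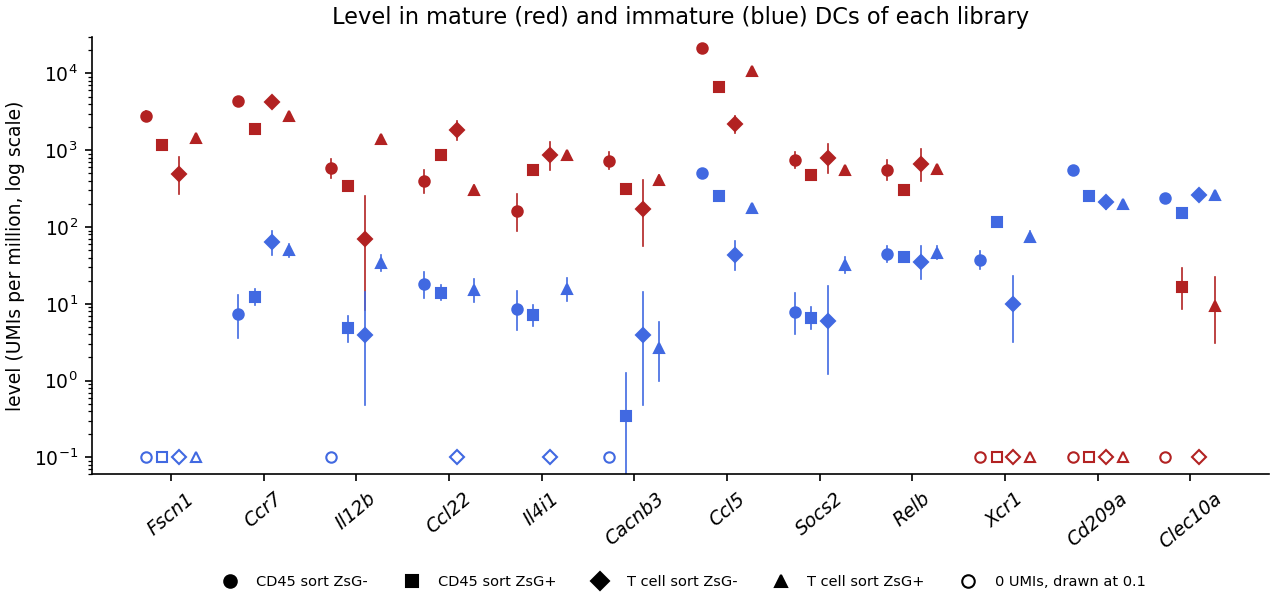
Level in CPM on a log axis (0 UMIs drawn as open symbols at 0.1) of 12 genes in mature (red) and immature (blue) DCs of each library, with exact Poisson 95% intervals. Red symbols lie above blue ones for the 6 defining markers and for *Ccl5*, *Socs2* and *Relb*, while *Xcr1* and *Cd209a*, which define immature DCs by the rule, had 0 UMIs in mature DCs, and *Clec10a* lay below its immature level in each library.

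To compare the share of cells with a UMI at equal depth, cells were thinned to 3000 UMIs, which left out 1 mature DC, 59 T cells and 13 macrophages of the CD45 sort and 80 T cells and 11 macrophages of the T cell sort. *Il4i1* was then seen in 57.4% of mature DCs, 2.62% of immature DCs, 0.355% of T cells and 0.379% of macrophages of the CD45 sort (85.5% of mature DCs before thinning). In the T cell sort the shares were 86.0%, 2.68%, 0.147% and 0% (96.0% before). *Cacnb3* was seen in 75.4%, 0.437%, 0.101% and 0% in the CD45 sort and in 70.0%, 0.893%, 0.0736% and 0% in the T cell sort. T cells, which should lack these genes, serve as the background. Their median depths before thinning were 7227 and 14778 UMIs in the ZsG- and ZsG+ libraries of the CD45 sort and 5825 and 6674 UMIs in those of the T cell sort, and doublets among them were not removed. Mature DCs were far above that background for both genes.

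*Ccl22* was seen in 54.1% of thinned mature DCs against 1.53% of immature DCs and 0.101% of T cells in the CD45 sort, and in 40.0%, 1.34% and 0% in the T cell sort. *Il12b* was seen in 23%, 1.75% and 0.0507%, and in 18.0%, 1.34% and 0%. *Ccr7* is also a gene of naive and memory T cells and was seen in 98.4% of thinned mature DCs, 1.53% of immature DCs and 13.5% of T cells of the CD45 sort. *Ccl5* is a T cell gene too: it was seen in 85.2% of mature DCs, 15.3% of immature DCs and 80.0% of T cells of the CD45 sort, and its share of cells therefore does not set mature DCs apart from T cells.

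**Figure D3:**
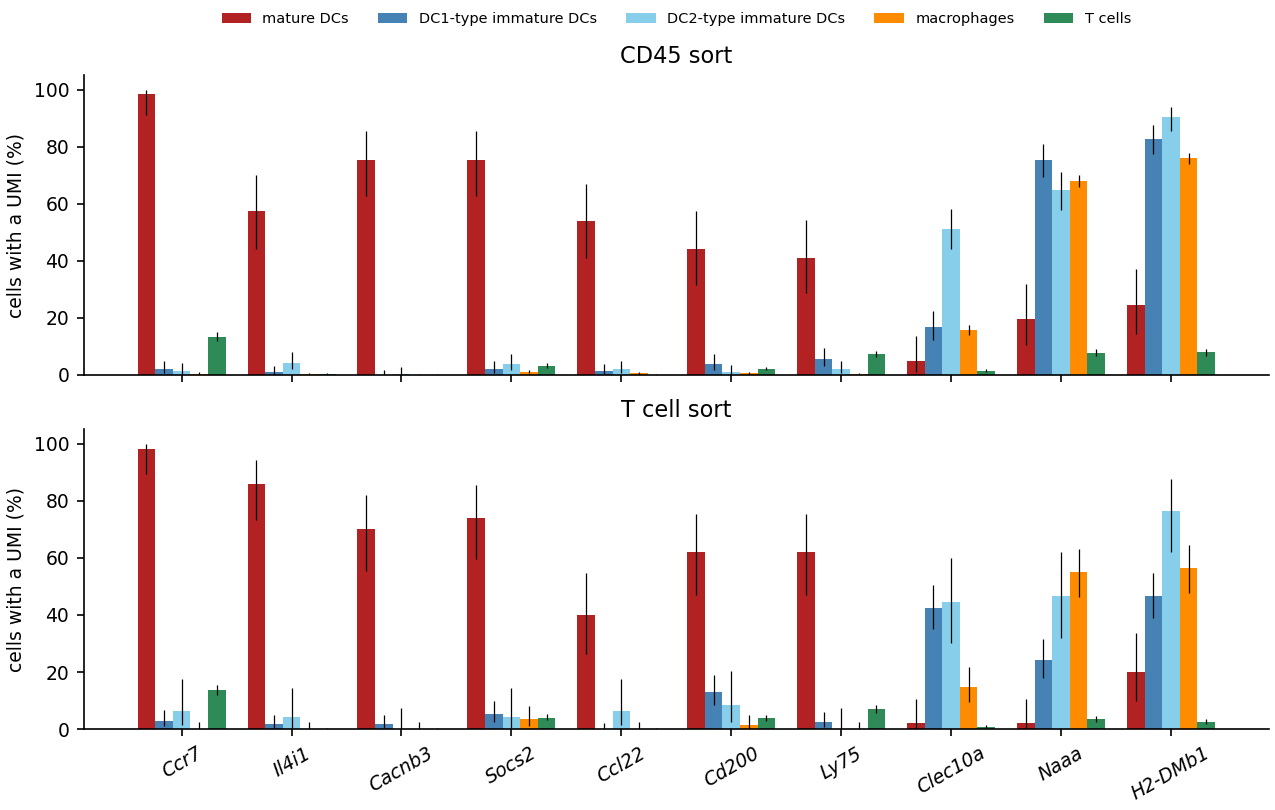
Percent of cells with a UMI after each cell was thinned to 3000 UMIs, for 10 genes in mature DCs, DC1-type and DC2-type immature DCs, macrophages and T cells of either sort; lines are exact binomial 95% intervals. The mature bars of *Ccr7*, *Il4i1*, *Cacnb3*, *Socs2* and *Ccl22* are the tallest of each group, and those of *Clec10a*, *Naaa* and *H2-DMb1* lie below the immature bars.

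Over all genes with at least 20 UMIs in both classes together, 891 of 10002 (8.91%) were at least 2-fold higher and 1811 (18.1%) at least 2-fold lower in mature DCs of the CD45 sort. In the T cell sort 801 of 8250 (9.71%) were higher and 2520 (30.5%) lower. Of 8153 genes measured in both sorts, 493 (6.05%) were higher and 967 (11.9%) lower in both, and 20 passed 2-fold in opposite directions. Counting only these 8153 genes, the genes higher in both were 73.6% of those higher in the CD45 sort and 62.3% of those higher in the T cell sort, and the genes lower in both were 72.7% and 39.2%. These shares are the background of the counts that follow, and since the rule used this contrast nothing is read from the counts beyond their size. Higher genes were 33.0% of all genes past 2-fold in the CD45 sort and 24.1% in the T cell sort; with TMM scaling, which moves every log2 ratio up by 0.16 and 0.32, they were 42.5% and 37.6%. The median log2 ratio of all genes was -0.23 and -0.43.

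The immature class of the T cell sort departs from its label. Of its 224 cells, 143 (63.8%) held a UMI of *Siglech*, a receptor of plasmacytoid DCs (pDCs), against 47 of 458 (10.3%) in the CD45 sort, and its levels of the pDC genes *Siglech*, *Ly6d* and *Ccr9* were 880, 1315 and 656 CPM. Without the cells holding a *Siglech* UMI, 81 cells were left, and 842 genes were higher and 1644 lower in mature DCs, of which 591 and 1381 were also past 2-fold against the whole class. In the CD45 sort 411 cells were left, with 926 genes higher and 1668 lower. Without those cells the T cell sort ratios of the 15 genes named below as higher were smaller by up to 0.97 and all stayed past 2-fold, whereas those of the 15 lower genes moved in either direction, up by as much as 2.52 and down by as much as 0.44, and 4 no longer passed. The immature class of the CD45 sort differed between gates. Its 10 pDC genes summed to 3810 CPM in ZsG- and 633 CPM in ZsG+ cells.

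In the CD45 sort, macrophage RNA moved with the gate. The 15 macrophage genes summed to 0, 7035, 0 and 627 CPM in mature DCs of the 4 libraries, to 2437, 9368, 1464 and 2294 CPM in immature DCs, and to 207, 8327, 1373 and 2296 CPM in T cells. In the CD45 sort ZsG+ mature DCs the most abundant of them was *Lyz2* (2420 CPM) and 0 of 15 were without UMIs; in the T cell sort ZsG+ mature DCs it was *Lyz2* (544 CPM) and 7 were without UMIs. At least 3 C1q UMIs were found in 16 of the 51 mature DCs of the CD45 sort ZsG+ library, in 0 of the 11 of the ZsG- library and in 0 of 50 in the T cell sort. Over the CD45 sort that was 25.8% of mature DCs, against 36.5% of immature DCs (167 of 458) and 44.9% of DC1-type cells (102 of 227). In the T cell sort 11 of 224 immature DCs held as many. Mature DCs of the ZsG+ library of the CD45 sort thus carried macrophage RNA, and its part in the ratios of that sort was not tested. Its level was below that in T cells of the same library, but those are no clean background. Their median depth was 14778 UMIs against 7227 in the ZsG- library, and doublets among them were not removed. Of the 2033 T cells of the CD45 sort, 225 held at least 3 C1q UMIs.

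Markers of other lineages were given the same way. The 15 T cell genes summed to 209, 16.8, 0 and 153 CPM in mature DCs and to 788, 84.2, 272 and 385 CPM in immature DCs; *Cd8a*, also a gene of DC1, was the most abundant in the T cell sort ZsG+ library (115 CPM). The 10 natural killer (NK) cell genes summed to 696, 154, 416 and 283 CPM, led by *Klrk1*. The 8 B cell genes summed to 0, 54.5, 0 and 121 CPM, led by *Ighm*, and the 11 monocyte genes to 69.6, 3696, 0 and 2146 CPM, led by *Lyz2* and *Plac8*. The 10 pDC genes summed to 406, 625, 312 and 1695 CPM, led by *Bst2*, an interferon-induced gene. In mature DCs of the T cell sort *Bst2* made up 933 of the 1623 CPM of the list, and 0 of its 10 genes were without UMIs. *Siglech* was seen in 0 of 62 and 4 of 50 mature DCs. The 15 melanocyte genes summed to 11.6, 53.1, 0 and 11.3 CPM in mature DCs and to 15.4, 54.3, 27.9 and 39.9 CPM in T cells. No library's mature DCs exceeded its T cells, but the CD45 sort ZsG- value is 1 UMI. The study reports that T cells in the tumor also take up tumor material. They are thus no clean background here, and the comparison cannot show whether mature DCs held tumor RNA. The list is not particular to tumor cells: *Gpnmb*, which macrophages also express, was its most abundant gene in CD45 sort ZsG+ mature DCs (23.8 CPM). *Cd3d* had 0 UMIs in either sort, which the rule favours.

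Against immature DCs, few genes of these lists were higher. Of 12 T cell genes with enough UMIs, 0 were higher and 11 lower in the CD45 sort, and of 6 in the T cell sort 0 and 5. The limit on CD3 UMIs was set on mature DCs only, and without it the medians of the T cell list turn from -1.49 and -2.61 to 1.09 and 2.08. Against immature DCs without *Siglech*, 2 of the same 6 genes were higher and 4 lower. The macrophage list had 0 higher and 2 lower of 15 in the CD45 sort (median log2 -0.08, which turns to 0.08 with TMM scaling) and 0 and 13 of 13 in the T cell sort (median -3.59, or -2.74 with genes at 0 put at their bound). The monocyte list had 0 and 5 of 9, and 1 and 6 of 9. The NK list had 2 and 3 of 9, and 0 and 4 of 6 (median -2.50, which turns to 0.47 without the top 5% of doublet scores). The B cell list had 0 and 2 of 2, and 0 and 1 of 2 (median -1.55, or 2.07 against immature DCs without *Siglech*), and the melanocyte list 1 and 0 of 6, and 0 and 1 of 1. The pDC list had 0 and 7 of 10, and 0 and 9 of 10, with medians of -2.45 and -2.61 that turn to 0.37 and 3.14 once immature DCs with a *Siglech* UMI are left out. Over the same 10 genes, 4 were then higher and 2 lower in the CD45 sort, and 7 and 0 in the T cell sort. That setting drops immature DCs by a gene of this list.

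Genes were then named by a rule: detected in 25% or more of the higher class's cells in each sort, past 2-fold in the same direction in both sorts with intervals clear of 0, and the 15 largest in each direction by the smaller ratio of both sorts. Genes used to choose the cells were left out. The rule passed 362 higher and 397 lower genes. Ranked first, with 0.5 added to an immature sum of 0, was *Nudt17* (ENSMUSG00000028100, chr3:96706067-96708562, minus strand), a Nudix-family hydrolase. It stood at 151, 163, 208 and 157 CPM in mature DCs and at 0 in all immature DCs, at least 396-fold higher in the CD45 sort and at least 147-fold in the T cell sort, both against a limit of 3 UMIs over the immature class. It was seen in 71.0% and 58.0% of mature DCs before thinning.

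The long non-coding genes *Gm13546* (chr2:58164001-58177063, plus strand) and *Gm47662* (chr13:32997062-33001750, plus strand) were next to absent from immature DCs. *Gm13546* stood at 329 and 208 CPM in mature DCs of the CD45 and T cell sorts against 0.546 and 0.361 CPM, log2 9.07 (7.86 to 11.12) and 8.59 (6.66 to 14.48). *Gm47662* stood at 58.6 and 44.8 CPM against 0, at least 143-fold and 41.3-fold higher. *Tmem150c*, a membrane protein of mechanically activated currents, stood at 43.7 and 68.1 CPM against 0, at least 106-fold and 62.8-fold higher.

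Genes of the cytoskeleton, organelles and signalling followed. *Scin*, the actin-severing protein scinderin, had log2 ratios of 7.55 (5.94 to 10.95) and 7.24 (5.66 to 10.63). *Mreg*, melanoregulin, which takes part in organelle transport, had 7.64 (6.02 to 11.03) and 6.17 (4.91 to 8.25), and *Adcy6*, an adenylate cyclase that makes cyclic AMP, 7.33 (5.92 to 9.85) and 6.28 (5.02 to 8.35). *Ramp3*, which pairs with the calcitonin-like receptor to form an adrenomedullin receptor, stood at 1486, 373, 1316 and 501 CPM against 19.2, 9.99, 17.8 and 4.42 CPM, log2 5.37 (5.04 to 5.73) and 6.27 (5.64 to 7.06). The others were *Vsig10* (6.29 and 6.61), *Ikzf4*, the Ikaros-family factor Eos (5.71 and 5.69), *Ankrd33b* (5.65 and 6.06), *H2-Eb2*, an MHC class II beta gene with little expression in most cells (5.23 and 5.02), *Cd70*, *Cacnb3* and *Il4i1*.

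The named lower genes had few UMIs in mature DCs, so their intervals are wide. *Rgs18*, a regulator of G protein signalling, had 0 UMIs in mature DCs of the CD45 sort against 28.1 CPM, at least 7.52-fold lower, and 1 UMI in the T cell sort (log2 -4.71, -10.60 to -2.80). *Clec10a*, a galactose-binding lectin for antigen uptake, stood at 0, 16.8, 0 and 9.45 CPM in mature and 238, 153, 262 and 258 CPM in immature DCs, log2 -3.45 (-4.47 to -2.70) and -4.71 (-6.48 to -3.62). *Tfrc*, the transferrin receptor, had -2.97 and -3.74 (-2.36 without *Siglech*-bearing immature DCs), and *Trf*, transferrin itself, -2.86 and -3.84.

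*Bcl11a*, a factor of DC and pDC development, had -3.45 (-5.21 to -2.35) and -3.34 (-4.12 to -2.73). Without immature DCs holding *Siglech* its T cell sort ratio was -0.83. In the same way *Cd7* went from -3.15 to -1.23, *Srgap3* from -3.07 to -0.85, *Khk* (ketohexokinase) from -2.75 to -0.84 and *BC147527* from -2.70 to -0.59. Other named genes were *Nedd9*, a scaffold of cell adhesion (-2.98 and -3.29, the latter going to -2.07), *Cdkn2d*, the cell cycle inhibitor p19 (-2.88 and -2.94, the latter going to -2.0), *Dkc1*, the pseudouridine synthase dyskerin (-3.06 and -2.86), *Lrmp* (-2.70 and -3.09) and *Tipin*, which guards replication forks (-2.67 and -2.67).

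**Figure D4:**
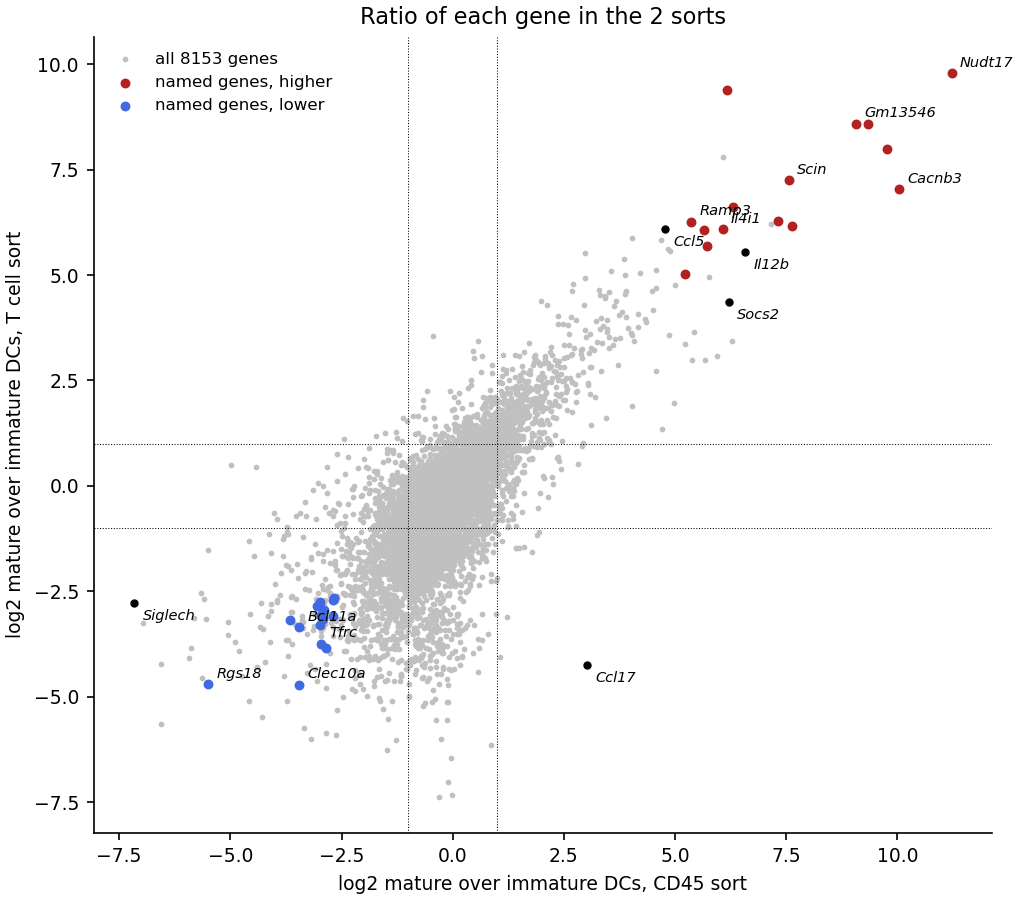
Log2 ratio of mature over immature DCs in the CD45 sort (x axis) and the T cell sort (y axis) for the 8153 genes with at least 20 UMIs in both sorts (grey), with the higher (red) and lower (blue) genes of the naming rule and 5 others labelled in black. Dotted lines mark 2-fold; *Ccl17* lies right of 2-fold on the x axis (3.03) and far below it on the y axis (-4.25).

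The list of DC maturation genes followed the defining markers: 24 of 26 counted genes were at least 2-fold higher in the CD45 sort (0 lower, median log2 3.84) and 23 of 24 in the T cell sort (1 lower, *Ccl17*, median 3.96). The genes that did not pass in the CD45 sort were *Cd83* (1.00, just short of 2-fold before rounding, and 2.06 in the T cell sort) and *Cd86* (0.40 and 2.38). *Ccl5*, a chemokine for T and myeloid cells, was the most abundant: 21276, 6652, 2182 and 10653 CPM in mature and 497, 251, 43.4 and 174 CPM in immature DCs, log2 4.77 (4.70 to 4.84) and 6.08 (5.94 to 6.23). T cells of the sorts held 2291 and 4350 CPM, so that by summed levels only the T cell sort ZsG- library with its 2 mature DCs lay below the T cell level. The sum of the T cell sort ZsG+ library rests on few cells, with a median of 25 *Ccl5* UMIs and a highest of 917. Of all *Ccl5* UMIs in mature DCs of that sort, 3 cells held 38.6%. *Socs2*, an inhibitor of cytokine receptor signalling, stood at 754, 478, 797 and 546 CPM against 7.94, 6.54, 5.92 and 31.9 CPM, log2 6.20 and 4.36.

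Other maturation genes were higher in both sorts. *Serpinb6b*, a protease inhibitor, had log2 5.01 and 4.76, *Tbc1d4*, a Rab GTPase-activating protein, 4.57 and 5.13, *Samsn1*, an adaptor, 4.02 and 3.57, and *Tmem123* 3.66 and 3.48. *Il15ra*, which presents IL-15 to T and NK cells, had 3.47 and 3.94, and *Il15* itself 1.99 and 4.39. *Apol7c*, an apolipoprotein L gene of DCs, was seen in 14 of 62 and 4 of 50 mature DCs and had 0 UMIs in immature DCs (at least 155-fold and 16.5-fold higher). It was counted in the CD45 sort alone, since it had 10 UMIs in the T cell sort, 90% of them in 3 cells. *Ccl19*, the CCR7 ligand, had 0 UMIs in 62 and in 50 mature DCs, which allows shares of cells with a UMI of up to 5.78% and 7.11%.

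**Figure D5:**
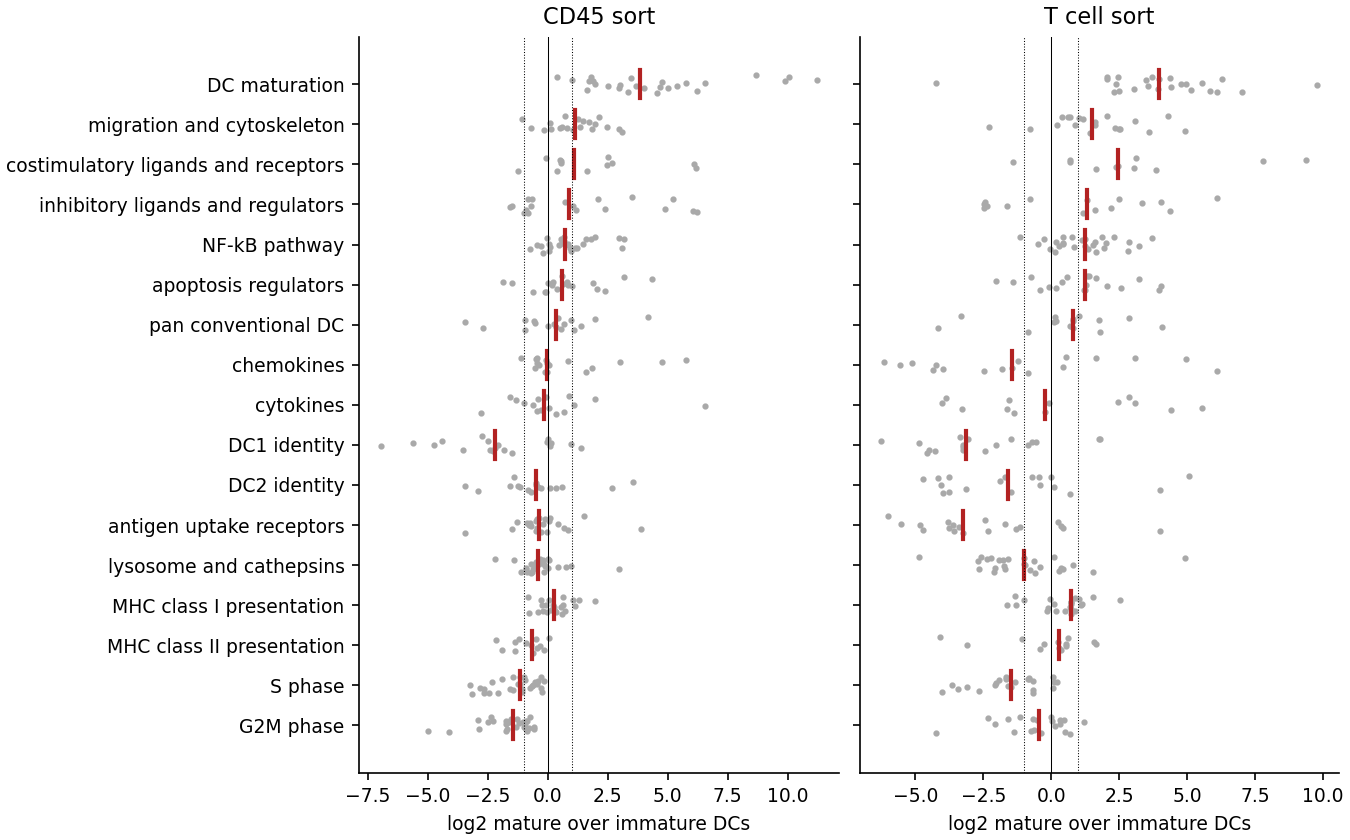
Log2 ratio of mature over immature DCs for the counted genes (grey points, at least 20 UMIs in both classes together, genes of the rule left out) of 17 lists in either sort, with each list's median as a red bar; vertical lines mark 0 and, dotted, 2-fold. The red bar lies near 4 for DC maturation and below -2 for DC1 identity in either sort; the medians of chemokines (CD45 sort) and cytokines (T cell sort) lie close enough to 0 to change sign with TMM scaling.

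Genes of the NF-kB pathway, the signalling route of Toll-like and TNF-family receptors, were on the higher side. In the CD45 sort 9 of 27 were at least 2-fold higher and 0 lower (median 0.71), and in the T cell sort 15 and 1 (median 1.24). Of the alternative branch, *Relb* stood at 557, 302, 658 and 574 CPM in mature and 45.0, 41.1, 35.5 and 46.5 CPM in immature DCs (log2 2.97 and 3.70), and its kinase *Map3k14* (NIK) and partner *Nfkb2* had 3.08 and 2.83, and 1.79 and 2.29. *Chuk* (IKK-alpha), the other kinase of that branch, had -0.47 and -0.28. *Birc2*, the ubiquitin ligase cIAP1, stood at 615, 254, 485 and 416 CPM against 62.8, 24.3, 63.1 and 41.2 CPM (3.18 and 3.21), and *Traf1* at 1254, 791, 1663 and 1041 CPM against 228, 212, 126 and 153 CPM (1.96 and 2.86). *Rel* had 1.61 and 1.88, while *Rela* (0.98 and 0.76) and *Nfkb1* (0.68 and 0.82) did not reach 2-fold in either sort.

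Promoters of these genes were searched for GGGNNTTCC, a short form of the NF-kB motif (GGAANNCCC on the other strand), in the 250 bases before to 50 after each start in RefSeq (GRCm38.p6). The motif was in 9 of the 23 NF-kB pathway genes with a promoter in the table (39.1%) and in 1777 of all 27025 genes (6.58%; 1912 of 32851 promoters, 5.82%). Of the 7 of these genes at least 2-fold higher in both sorts, 3 held it, and of the other 16, 6 held it. It was in 0 of 5 defining markers, 0 of 11 named higher and 0 of 8 named lower genes with a promoter in the table. The stretches of the 3 genes that were higher in both sorts and held it are shown because *Relb* and *Nfkb2* belong to a pathway that acts on such letters. They are given 5′ to 3′ on the gene's strand with 20 bases on either side and the matches in capitals, from chr19:46304678-46304755 (plus strand, 3 matches of which 2 overlap, the first 39 bases before the start), chr11:23771032-23771080 (minus strand, 91 bases before) and chr9:7837259-7837307 (minus strand, 230 bases before). A match of letters is a description and not a bound site.
Nfkb2: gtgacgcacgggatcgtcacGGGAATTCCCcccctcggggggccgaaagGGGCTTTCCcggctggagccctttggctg
Rel: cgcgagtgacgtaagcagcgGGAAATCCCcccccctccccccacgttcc
Birc2: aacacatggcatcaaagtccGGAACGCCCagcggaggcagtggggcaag

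Of 12 costimulatory genes counted, 6 were higher and 1 lower in the CD45 sort (median 1.11), and of 11, 8 and 1 in the T cell sort (median 2.45). Against immature DCs without *Siglech* the T cell sort median was 1.89, with 8 and 1 again. *Cd80*, a ligand of CD28, stood at 267, 122, 173 and 181 CPM in mature and 21.2, 25, 9.87 and 24.8 CPM in immature DCs, log2 2.51 and 3.03. *Cd86*, the other CD28 ligand, stood at 232, 240, 762 and 482 CPM against 126, 196, 122 and 88.9 CPM. Its ratio was 0.40 in the CD45 sort, where the classes of the ZsG+ library lay close, and 2.38 in the T cell sort. *Cd40*, the receptor for T cell help, stood at 128, 265, 658 and 351 CPM against 68.1, 83.0, 84.8 and 63.3 CPM (1.65 and 2.45).

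The TNF-family ligands *Cd70* and *Tnfsf4* were nearly absent from immature DCs, while *Tnf* itself was not higher in mature DCs (-0.06 and -1.55). *Cd70*, the ligand of CD27, stood at 58.0, 53.1, 69.3 and 123 CPM in mature and 0.662, 0.689, 0 and 0 CPM in immature DCs, log2 6.17 (4.96 to 7.99) in the CD45 sort and at least 111-fold higher in the T cell sort. *Tnfsf4* (OX40L) stood at 34.8, 21.0, 69.3 and 37.8 CPM against 0.662, 0.172, 0 and 0 CPM, log2 6.08 and at least 36.3-fold. The receptors *Tnfrsf4* (OX40, 2.48 and 3.84) and *Tnfrsf9* (4-1BB, 2.68 and 3.13) were higher too, and *Cd48*, a ligand of CD244, was lower (-1.23 and -1.40).

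Genes that limit T cells were also higher in mature DCs, though not all of them. Of 18 counted, 9 were higher and 2 lower in the CD45 sort (median 0.90), and of 15, 9 and 5 in the T cell sort (median 1.30). *Cd274* (PD-L1) stood at 313, 172, 346 and 295 CPM in mature and 54.2, 98.5, 59.2 and 52.2 CPM in immature DCs, log2 1.07 and 2.47, and the other PD-1 ligand, *Pdcd1lg2*, had 2.11 and 2.20. *Cd200*, which signals to myeloid cells, stood at 279, 191, 831 and 412 CPM against 19.8, 1.55, 43.4 and 42.0 CPM (5.22 and 3.35). *Fas*, a death receptor, had 2.37 and 4.04. *Aldh1a2*, which makes retinoic acid, was seen in 9 of 62 and 3 of 50 cells (4.88 and 3.89). It was counted in the CD45 sort alone, since it had fewer than 20 UMIs in the T cell sort (at most 2 in a mature DC).

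On the lower side were *Lgals9*, encoding galectin-9 (-0.84 and -2.48), *Tgfb1* (-0.98 and -1.61) and *Havcr2*, encoding TIM-3 (-1.48 and -2.45). *Cd274* is held by other cells as well: after thinning it was seen in 47.5% of mature DCs, 20.3% of immature DCs, 12.0% of T cells and 33.5% of macrophages of the CD45 sort, and in 60.0%, 7.14%, 13.8% and 28.9% in the T cell sort.

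Chemokine genes moved apart from each other. Of 17 counted, 5 were higher and 1 lower in the CD45 sort (median -0.05, which turns positive with TMM scaling), and 4 higher and 10 lower in the T cell sort (median -1.45). *Ccl5*, *Ccl22* and *Cxcl16*, the ligand of CXCR6 (1.86 and 3.10), were higher in both. *Ccl17*, a CCR4 ligand like *Ccl22*, stood at 11.6, 746, 0 and 9.45 CPM in mature and 1.98, 103, 389 and 142 CPM in immature DCs. Only the mature DCs of the CD45 sort ZsG+ library held it at a high level, in 18 of 51 cells. The 3 highest cells held 67.9% of all *Ccl17* UMIs in mature DCs of that sort (up to 219 in 1 cell, median 0), so its ratio rests on few cells. Every mature DC of the CD45 sort with a *Ccl17* UMI (19) also held *Ccl22*. Macrophage chemokines such as *Ccl2* were at like levels in both classes of the CD45 sort (-0.38) and lower in mature DCs of the T cell sort (-5.56), as C1q genes were. In mature DCs of the CD45 sort *Ccl2* had 0 UMIs in the ZsG- library and stood at 974 CPM in the ZsG+ library. Without the ZsG+ cells holding at least 3 C1q UMIs it stood at 478 CPM.

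Among chemokine receptors other than *Ccr7* and *Xcr1*, which the rule used, there were 1 higher and 3 lower of 9 in the CD45 sort and 0 and 5 of 7 in the T cell sort (medians -0.76 and -2.82). Against immature DCs without *Siglech*, 1 was higher and 4 were lower in the T cell sort (median -1.95). *Ccr2*, which brings monocytes and DC precursors into tissue, stood at 11.6, 150, 0 and 34.0 CPM in mature and 470, 405, 268 and 237 CPM in immature DCs (-1.63 and -2.87). The higher gene of the CD45 sort was *Cxcr5*, the receptor for follicular CXCL13, at 81.3, 27.9, 34.6 and 22.7 CPM against 0 in every immature library (at least 82.2-fold and 21.5-fold higher). It was counted in the CD45 sort alone, since it had fewer than 20 UMIs in the T cell sort.

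Cytokine genes were split: 3 were higher and 3 lower of 16 in the CD45 sort (median -0.17) and 5 and 6 of 13 in the T cell sort (median -0.24). Neither median has a stable sign: that of the T cell sort was 1.28 with cells holding at least 3 C1q UMIs left out, 0.61 with thinning, 0.51 against DC2-type cells alone, 0.08 with TMM scaling and -0.98 over the same genes against immature DCs without *Siglech*, and in the CD45 sort it reached 0.21 against DC1-type cells alone. *Il27* (1.11 and 2.45) and its partner *Ebi3* (0.88 and 2.86) were on the higher side, *Il1b* (-0.42 and -1.36) and *Tnf* were not. The list of IL-4 response and type 2 genes had 4 higher and 0 lower of 9 (median 0.60), and 4 and 1 of 9 (median 0.61). Its higher genes were the chemokines, *Il4i1* and *Tnfrsf4* given above in the CD45 sort, while *Il4ra* (0.13 and 0.61) and *Stat6* (0.50 and 0.16), the receptor chain and the factor of IL-4 signalling, did not reach 2-fold.

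Of the migration and cytoskeleton genes, 11 of 20 were higher and 1 lower in the CD45 sort (median 1.15), and 13 and 1 in the T cell sort (median 1.51). Against immature DCs without *Siglech*, 10 were higher and 1 lower in the T cell sort (median 1.03). *Cd63*, a tetraspanin of late endosomes, stood at 963, 820, 1663 and 742 CPM in mature and 2.65, 133, 23.7 and 26.1 CPM in immature DCs (2.98 and 4.94), and *Tspan3* had 3.08 and 3.6. *Marcksl1* had 2.12 and 4.28, *Marcks*, which binds actin and membrane, 1.70 and 2.49, and the myosin *Myo1g* 1.97 and 2.33. The actin-binding *Tmsb4x*, already among the most abundant transcripts, had 1.04 and 1.61, and the actin genes *Actb* (0.58 and 0.87) and *Actg1* (0.81 and 1.43) were on the higher side. *Fgd2* was lower (-1.09 and -2.30).

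Regulators of cell death had 6 genes higher and 2 lower of 19 in the CD45 sort (median 0.60) and 11 and 2 in the T cell sort (median 1.25). *Bcl2a1b*, which protects from apoptosis, stood at 3482, 2666, 2875 and 2909 CPM in mature and 164, 799, 221 and 549 CPM in immature DCs (2.04 and 2.57); its reads may be shared with *Bcl2a1d* (1.90 and 2.03), a near-identical copy. *Bcl2l14* (4.33 and 3.96) and *Cflar*, which blocks caspase-8 (1.02 and 1.64), were higher, and *Bcl2* (-1.51 and -1.42) and *Bid* (-1.84 and -2.04), a protein that promotes cell death, were lower.

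Genes of DC identity divided by kind. Of the pan-DC genes, 4 of 17 were higher and 2 lower in the CD45 sort (median 0.33), and 5 and 2 of 15 in the T cell sort (median 0.79), or 3 and 1 against immature DCs without *Siglech* (median 0.19); *Flt3* (1.11 and 0.80) and *Zbtb46* (0.57 and 1.01), a receptor and a factor of conventional DCs, were not lower. *Adam23*, a metalloprotease-like gene, was the highest (4.16 and 4.07) and *Itgax* (CD11c) was on the lower side (-0.93 and -4.16). Of the DC1 genes, 1 was higher and 13 lower of 19 in the CD45 sort (median -2.20, or -2.07 with genes at 0 put at their bound), and 2 and 13 of 18 in the T cell sort (median -3.15, or -1.94). In the T cell sort 0 were higher and 15 lower (median -3.85) against immature DCs without *Siglech*.

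Single genes of the DC1 list went different ways. *Naaa*, an acid amidase, stood at 0, 163, 0 and 15.1 CPM in mature and 282, 773, 213 and 494 CPM in immature DCs (-2.20 and -4.86), *Wdfy4*, needed for cross-presentation, had -2.50 and -3.37, and *Tlr3*, the receptor for double-stranded RNA, had 0 UMIs (at least 8.22-fold and 3.90-fold lower). The factors *Batf3* (0.99 and 1.76) and *Id2* (1.39 and 1.81) were not lower, and *Irf8* had -0.00 and -0.87. Against immature DCs without *Siglech*, 0 genes of the list, and so neither *Batf3* nor *Id2*, were at least 2-fold higher in the T cell sort. An *Xcr1* or *Clec9a* UMI was found in 5 of 62 and 3 of 50 mature DCs; the rule does not bar them.

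Of the DC2 genes, 2 were higher and 6 lower of 17 in the CD45 sort (median -0.51), and 2 and 10 of 18 in the T cell sort (median -1.59). Besides *Clec10a*, the lectin *Mgl2* was lower (-1.24 and -4.18), and *Cd209a*, by which DC2-type cells were chosen, had 0 UMIs. The genes that were higher were *Tmem176a*, at 720, 544, 1594 and 1122 CPM in mature and 102, 33.9, 35.5 and 33.2 CPM in immature DCs (3.55 and 5.09), and *Tmem176b* (2.67 and 4.02), both encoding ion channels of intracellular membranes.

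Against each kind of immature DC alone, the defining markers were higher in either case. In the CD45 sort the log2 ratio over DC1-type and over DC2-type cells was 5.94 and 7.67 for *Il12b*, 6.15 and 5.57 for *Ccl22*, and 8.05 and 5.24 for *Il4i1*. *Tmem176a* was 5.53 above DC1-type and 2.56 above DC2-type cells, and *Ly75* 3.28 and 5.19. *Irf8* was -0.57 against DC1-type and 1.26 against DC2-type cells, so its ratio near 0 joins opposite signs. *Mgl2* was 0.24 against DC1-type and -2.10 against DC2-type cells.

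Uptake genes were lower in the T cell sort: 15 of 19 counted were lower and 1 higher there (median -3.27, or -3.01 with genes at 0 put at their bound), against 3 and 2 of 23 in the CD45 sort (median -0.35). The Fc receptor *Fcgr3* had -0.45 and -4.84. The higher gene in both sorts was *Ly75* (DEC-205), an endocytic receptor of DCs, at 383, 163, 762 and 176 CPM in mature and 14.6, 12.1, 3.95 and 14.6 CPM in immature DCs (3.89 and 4.01). After thinning it was seen in 41.0% of mature DCs, 4.80% of immature DCs and 7.29% of T cells of the CD45 sort, and in 62.0%, 3.57% and 7.06% in the T cell sort. *Timd4*, a phosphatidylserine receptor, was also higher in the CD45 sort list (1.52).

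Lysosome and cathepsin genes had 1 higher and 3 lower of 27 in the CD45 sort (median -0.42) and 2 and 15 of 27 in the T cell sort (median -1.02). Against immature DCs without *Siglech*, 5 were higher and 12 lower in the T cell sort (median -0.77). *Ctsl*, encoding cathepsin L (-1.12 and -2.65), and *Man2b1*, a mannosidase (-1.42 and -2.57), were lower in both, and *Lamp1* (0.74 and 1.55) was on the higher side. Toll-like receptors and adaptors had 1 and 5 of 24 (median -0.73) and 2 and 8 of 15 (median -1.18). Over the same 15 genes, 4 were higher and 6 lower (median -0.91) against immature DCs without *Siglech*. The higher gene in both sorts was *Ly96* (MD-2), which binds endotoxin for TLR4 (1.02 and 2.02).

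MHC class II genes were on the lower side in the CD45 sort, with 0 higher and 5 lower of 14 (median -0.66). In the T cell sort 2 were higher and 3 lower of 13 (median 0.27), and without *Siglech*-bearing immature DCs 0 and 4 (median -0.47). The median there was also below 0 at a mitochondrial limit of 5% (-0.21), so its sign is not stable. *H2-DMb1*, a chain of the peptide-loading protein H2-M, stood at 0, 268, 69.3 and 75.6 CPM in mature and 904, 908, 527 and 673 CPM in immature DCs (-1.92 and -3.09), and *March1*, which marks class II for turnover, had -2.14 and -4.10. *Ciita*, the class II master regulator, had -1.36 and 0.25. The class II chain *H2-Aa* had -0.43 and 0.53 and the invariant chain *Cd74* -0.71 and 0.27.

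MHC class I genes had 4 higher and 0 lower of 23 in the CD45 sort (median 0.27), and 5 and 3 in the T cell sort (median 0.71). Against immature DCs without *Siglech*, 9 were higher and 3 lower in the T cell sort (median 0.58). The higher genes in both sorts were *H2-Q6* (1.98 and 2.52) and *H2-Q4* (1.05 and 1.13), whose reads can be shared with other Q-region genes, and *Psme2*, an activator subunit of the proteasome (1.13 and 1.52). The chaperone *Calr* was on the lower side (-0.80 and -1.29). Interferon-induced genes had 2 higher and 2 lower of 24 (median -0.21), and 2 and 4 of 25 (median 0.22). The latter median fell just under 0 with no limit on CD3 UMIs and with thinning, and against immature DCs without *Siglech* 4 were higher and 1 lower of 24 (median 0.47). Interferon-gamma GTPases had 0 and 2 of 14 (median -0.15, 0.01 with TMM scaling), and 3 and 1 of 14 (median -0.07, 0.25 with TMM scaling).

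Of the S phase genes, 0 were higher and 18 lower of 29 in the CD45 sort (median -1.14), and 0 and 13 of 23 in the T cell sort (median -1.48, or -0.90 with genes at 0 put at their bound). Of the G2M phase genes, 0 and 18 of 28 (median -1.43), and 1 and 6 of 20 (median -0.45), near the 30.5% lower and the median of -0.43 of all genes of the T cell sort. Over the same 20 genes, 0 were higher and 11 lower (median -1.20) against immature DCs without *Siglech*, but the median turned to 0.83 against DC2-type cells alone and 0.25 with no limit on CD3 UMIs. *Mki67*, a gene of dividing cells, was seen in 11 of 62 and 2 of 50 mature DCs, and *Top2a* in 3 and 1.

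Within mature DCs of the CD45 sort, ZsG+ and ZsG- cells differed in several genes, from 51 and 11 cells. Several genes of the maturation list were lower in the ZsG+ cells: *Ramp3* was 1486 CPM in ZsG- and 373 CPM in ZsG+ cells (log2 ZsG+ over ZsG- -2.0, -2.30 to -1.68), *Ccl5* 21276 and 6652 CPM (-1.68, -1.76 to -1.60), and *Tbc1d4* 2020 and 865 CPM (-1.23). Cell by cell, *Ccl5* had a median of 168 UMIs in ZsG- cells (lowest 29, highest 286) and 51 in ZsG+ cells (highest 450), so the cells overlapped. With the 16 ZsG+ cells holding at least 3 C1q UMIs left out (35 left), the log2 ratios were -1.73 for *Ramp3*, -1.32 for *Ccl5* and -0.92 for *Tbc1d4*.

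Other genes were higher in the ZsG+ cells. *Il4i1* was 163 CPM in ZsG- and 550 CPM in ZsG+ cells (log2 1.71, 1.00 to 2.64, and 2.10 without cells holding C1q), seen in 6 of 11 and 47 of 51 cells. T cells of those libraries held 2.59 and 1.53 CPM of it. *Ccl22* was 395 and 859 CPM (1.10, and 1.06 without those cells), and *Ccl17* was 1 UMI in ZsG- cells against 746 CPM (5.42, and 5.27 without those cells), most of it in 3 cells. *Ccl22* also lay in few cells: 3 mature DCs of the CD45 sort held 43.9% of its UMIs (up to 152 in 1 cell, median 3.5). From 2 ZsG- cells of the T cell sort, *Ccl22* went the other way, at 1836 CPM in ZsG- and 306 CPM in ZsG+ cells (-2.59, -3.04 to -2.11), and so did *Ccl5*, at 2182 and 10653 CPM (2.28, 1.93 to 2.67). By cell, however, *Ccl5* had a median of 31.5 UMIs in those ZsG- cells and 25 in the ZsG+ cells (highest 917). In that sort 3 mature DCs held 38.6% of its UMIs. *Il4i1* had -0.01 there (-0.57 to 0.66), and *Ramp3* was lower in the summed ZsG+ cells in both sorts (-1.41, -1.89 to -0.86). The 2 ZsG- cells of the T cell sort held 1 and 37 *Ramp3* UMIs, against a median of 4 in its ZsG+ cells. The *Ramp3* value of that sort thus rests on 1 cell.

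Class II genes were also higher in the ZsG+ cells. *H2-Ab1* was 279 CPM in ZsG- and 2722 CPM in ZsG+ cells (log2 3.26, 2.71 to 3.93, and 3.16 without cells holding C1q), with a median of 1 UMI (highest 14) and 16 UMIs (highest 181) in a cell. *Cd74* was 2205 and 7806 CPM (1.82, 1.61 to 2.04), *H2-Aa* 1416 and 4682 CPM (1.72), and *H2-Eb1* 580 and 3443 CPM (2.55). T cells, which make little class II RNA in mice, held 70 CPM *H2-Ab1* and 166 CPM *Cd74* in the ZsG- library but 2002 CPM and 4130 CPM in the ZsG+ library. The background thus moved with the gate, and its part in the difference was not tested.

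In the T cell sort, where *Cd74* in T cells of the ZsG+ library was 684 CPM and *H2-Ab1* 302 CPM, the ZsG+ mature DCs held 10252 CPM *Cd74* and 3963 CPM *H2-Ab1*. The 2 ZsG- cells held 6270 and 2078 CPM. The inflammation genes *Cxcl9*, *Cxcl10* and *Il1b* stood at 771, 993 and 1393 CPM in ZsG+ mature DCs of the CD45 sort, near the 845, 992 and 1035 CPM of T cells of the same library. In the ZsG+ library of the T cell sort *Cxcl9* and *Cxcl10* stood above the T cell level, at 1262 and 824 CPM against 109 and 182 CPM, and *Il1b* was 287 against 229 CPM.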

How the data were processed

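Sorted cells were profiled with the 10x Chromium 3′ v3.1 kit in 4 libraries. The authors deposited UMI counts, 1 matrix for each sort. Per the submitters' processing notes they aligned reads to mm10 with Cell Ranger 6.1.2 and joined the libraries of a sort with aggr, although the CD45 matrix carries version 7.0.0 in its header. No source used here says whether aggr evened depth. The matrices list 32285 (CD45 sort) and 31053 (T cell sort) genes, 30406 of them in both.

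Kept cells had 1000 to 5999 genes and under 10% mitochondrial UMIs (CD45 sort), or 50 to 5999 genes and under 15% (T cell sort). This left 4699 ZsG- and 4123 ZsG+ cells of the CD45 sort (median 5769 and 9928 UMIs) and 948 and 1879 of the T cell sort (6634 and 8180). A further CD3 filter that the methods describe for the T cell sort was not applied. Scrublet (in scanpy 1.11.5, expected rate 5%) called 2 and 0 doublets in the CD45 sort, where it did not work, and 1 and 22 in the T cell sort, so doublets were kept. Its scores were in the top 5% of their library in 8 of 62 and 5 of 50 mature DCs.

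For each class, UMIs were added up over cells and divided by the class total (CPM). Ratios had 0.5 added to each sum, and genes needed at least 20 UMIs over both classes. No test was run, since there was 1 library per condition. Named genes had at least 20 UMIs in each sort and a UMI in at least 25% of cells of the higher class, were past 2-fold the same way in both sorts with an interval that did not reach 0, and were the 15 largest in each direction; members of the gene lists were added. Of these genes, 1 is not reported here. The members and the 30 lists were chosen with earlier results of these data known. *Fscn1*, *Ccr7*, *Cd3d*, *Cd3e*, *Cd3g*, *Xcr1*, *Clec9a* and *Cd209a*, which the rule used, were not counted in lists. *Cd58*, *Cxcl11*, *Cxx1a*, *Cxx1b*, *Clec7a* and *Mx2* were not analysed here, and *Ifi30* was counted in the CD45 sort and *Mx1* in the T cell sort alone. Positions come from GENCODE on GRCm38 and promoters from RefSeq.

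Alternatives were other limits for *Fscn1*, CD3, mitochondrial UMIs and genes, leaving out cells by doublet score or C1q UMIs, TMM factors, totals without mitochondrial and ribosomal protein genes, thinning, 1 added, equal weight of cells, other UMI minimums, the ZsG+ library alone and parts of the immature class. Ratios and intervals were checked on simulated counts. Software was Python 3.11.15, pandas 2.3.3, numpy 2.4.6, scipy 1.17.1, matplotlib 3.10.9, R 4.3.3 and edgeR 4.0.16.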

Additional observations from a re-analysis of the deposited data

Results flagged for a closer look

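Of the 20 genes past 2-fold in opposite directions in the sorts, 2 belonged to the gene lists or named genes and had intervals that did not reach 0 in either sort. *Ccl17*, encoding a CCR4 ligand, had a log2 ratio of 3.03 in the CD45 sort and -4.25 in the T cell sort, and was seen in 19 of 62 and 4 of 50 mature DCs. Its UMIs in the CD45 sort lay mostly in 3 cells (67.9%). *Xcl1*, encoding the ligand of XCR1, had 1.61 and -1.45 on few UMIs (15 and 5.37 CPM in mature DCs). Neither difference was tested.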

How the results depend on the processing

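Of 123 settings of the shares and gene counts, 112 stayed within 1.5 times the count or within the 95% interval of the share. Of list medians 121 moved by over 0.5 on the log2 scale, a further 6 were reversed (given below) and 978 did neither. Of named genes 70 ratios left their 95% interval and 1178 did not. Mature DCs were 2.18% of CD45 sort ZsG+ cells with cells holding at least 3 C1q UMIs left out and 4.33% of T cell sort ZsG+ cells at a mitochondrial limit of 5%. The log2 ratio of shares ranged from 1.95 to 3.21 (CD45 sort) and from 3.10 to 3.71 (T cell sort). At a minimum of 100 UMIs, 448 genes were higher and 981 lower in the CD45 sort and 367 and 1090 in the T cell sort; at a minimum of 1 UMI, 3310 and 1939 were higher. Lower genes of the T cell sort numbered 1482 with cells thinned to 3000 UMIs, 1393 against DC2-type immature DCs alone and 1644 without immature DCs holding *Siglech*. List medians changed sign in 46 of 1105 settings, over lists of at least 3 counted genes, 6 of them from a median at least 2-fold from 0: T cell genes to 1.09 and 2.08 with no limit on CD3 UMIs, pDC genes to 0.37 and 3.14 without immature DCs holding *Siglech*, and NK cell genes of the T cell sort to 0.47 without the top 5% of doublet scores and 0.070 without immature DCs holding at least 2 CD3 UMIs. The cause was not tested. The *Siglech* and last CD3 settings were chosen after seeing the data. With the ZsG+ library alone, 860 genes were higher and 1502 lower in the CD45 sort and 775 and 2320 in the T cell sort. No paired analysis was possible because each gate of a sort is 1 library; mature and immature DCs share their libraries, but the rule chose them by this contrast, so it carries no test. Cell number limits what the 11 and 2 mature DCs of the ZsG- libraries can show, and genes under 20 UMIs were not counted.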
